A study of Mus musculus with 24 samples.

Results

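Cirbp and Rbm3 encode the best known cold-inducible RNA-binding proteins of mammals. They were followed here as the 2 probe sets, 1 per gene, that name only one of them among 19572 probe sets naming exactly 1 gene. The pair was selected on its measured SL minus control difference at ED14.5, in which Cirbp was among the largest of all genes. That contrast is therefore described below without a test of the pair. Expression was measured in 24 mouse samples of the outbred strain ICR-CD1, with 1 single-colour array each, in 6 groups of 4. The groups were grandoffspring of control males or of obese males (SL), labelled whole embryo at ED7.5 and ED14.5 (days of embryonic life) and liver at postnatal day 7.5 (PD7.5). No genetic change and no treatment of the grandoffspring is named in the labels, and the abbreviation SL is not spelled out there. Nor is it stated which litter or grandfather stands behind each sample, so p-values measure only the spread between these samples, which may be technical.

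Both proteins carry an RNA recognition motif followed by a glycine-rich tail, and bind transcripts to change their stability, translation and polyadenylation. Their transcripts rise when mammalian cells are cooled mildly and fall when cells are warmed, opposite to heat shock genes. In the mouse liver both follow the daily rhythm of body temperature, and Cirbp supports the expression of the clock gene Clock in mouse fibroblasts. Cirbp is also induced by ultraviolet light and low oxygen, and Rbm3 is known for its part in protein synthesis and synapse repair in cooled mouse neurons.

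The Cirbp gene lies on chromosome 10 (80165990 to 80172786 in GRCm38.p6) and Rbm3 on the X chromosome (8138975 to 8145880). RefSeq lists 8 transcripts for Cirbp and 5 for Rbm3, of which the array annotation ties 1 and 4 to the probe sets, so splice forms were not told apart. A pseudogene, Rbm3-ps, lies on chromosome 1 (150264926 to 150266073), and whether its RNA adds to the Rbm3 signal was not tested. The RefSeq table of promoters (GRCm38.p6) matched Cirbp, with 2 windows, and not Rbm3. Shown are the 250 bases before the start in the more upstream of these windows, chr10:80167589-80167838 on the plus strand. They lie inside the gene span given above, which begins farther upstream. They were chosen because they hold the letters of the mild cold response element, TCCCCGCC. It is described in the mouse Cirbp promoter as a site of the transcription factor Sp1. Capitals mark this element and the 3 GC boxes (GGGCGG on either strand), none of which overlaps it.

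Cirbp: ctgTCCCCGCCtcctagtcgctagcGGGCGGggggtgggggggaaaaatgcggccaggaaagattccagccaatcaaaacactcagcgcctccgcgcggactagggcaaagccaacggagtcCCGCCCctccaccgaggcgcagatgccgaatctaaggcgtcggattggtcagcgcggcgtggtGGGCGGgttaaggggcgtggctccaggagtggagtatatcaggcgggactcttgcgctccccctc

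The cold response element occupies the bases 247 to 240 before the start, on the plus strand. Of 32851 windows of the same length in the table, 4.64% held it on either strand and 32.7% held a GC box. The other Cirbp window held 4 GC boxes and no cold response element. Neither window held an E-box (CACGTG, in 6.02% of windows), a heat shock element (GAANNTTC, in 6.69%) or a cAMP response element (TGACGTCA, in 1.55%). A match is a description of letters and not a bound site.

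Levels are given in log2 as deposited after normalization, and 19505 genes with 1 probe set each were compared. Each array's background, the 75th percentile of its 5222 negative control probe sets, ran from 5.05 to 6.53. Both genes lay above background on 24 of 24 arrays. The markers named mostly decidua at ED7.5, where 14 of 14 decidua markers and 1 of 10 epiblast markers were above background on every control array. At ED14.5 the arrays carried 12 of 12 hepatocyte and 10 of 10 measured erythroid markers on every control array, and 2 of 10 muscle, 1 of 9 measured neuron and 0 of 8 cartilage markers. In the SL arrays these last counts were 2, 2 and 0, and Myog of muscle and Col2a1 of cartilage were at or below background on all 8 arrays, although the label is whole embryo. In such bulk samples fewer cells of a type and less RNA per cell cannot be told apart.

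Cirbp was higher in the SL group at ED14.5 on every array. The 4 control arrays read 8.33, 8.17, 8.44 and 8.39 in log2, and the 4 SL arrays 10.31, 10.04, 10.03 and 10.10. The lowest SL array thus stood above the highest control array by more than the whole spread of either group. Means were 8.33 ± 0.117 in control and 10.12 ± 0.131 in SL (SD, n = 4 each), a difference of 1.79 (SE 0.106), which is 3.45-fold. It ranked 3 from the top of 19505 differences in this comparison. SL levels at ED14.5 were also the highest of the 6 groups, and none overlapped them.

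Rbm3 was higher in the same SL group by a smaller step. Its control arrays read 12.49, 12.50, 12.45 and 12.36 and its SL arrays 12.95, 12.75, 12.81 and 12.81. Here too the groups did not overlap, although the gap was narrower than for Cirbp. Means of 12.45 ± 0.0637 and 12.83 ± 0.0811 (SD, n = 4 each) gave a difference of 0.38 (SE 0.0889), or 1.30-fold. That difference ranked 924 from the top of all genes, at percentile 95.3. Among all genes the SL arrays lay wholly above the control arrays in 3.71%, and limma called 0.0513% in either direction at an adjusted p below 0.05. Since this comparison led to the choice of the pair, nothing is read from these shares. The plot of the pair on each array shows both steps.

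**Figure D1:**
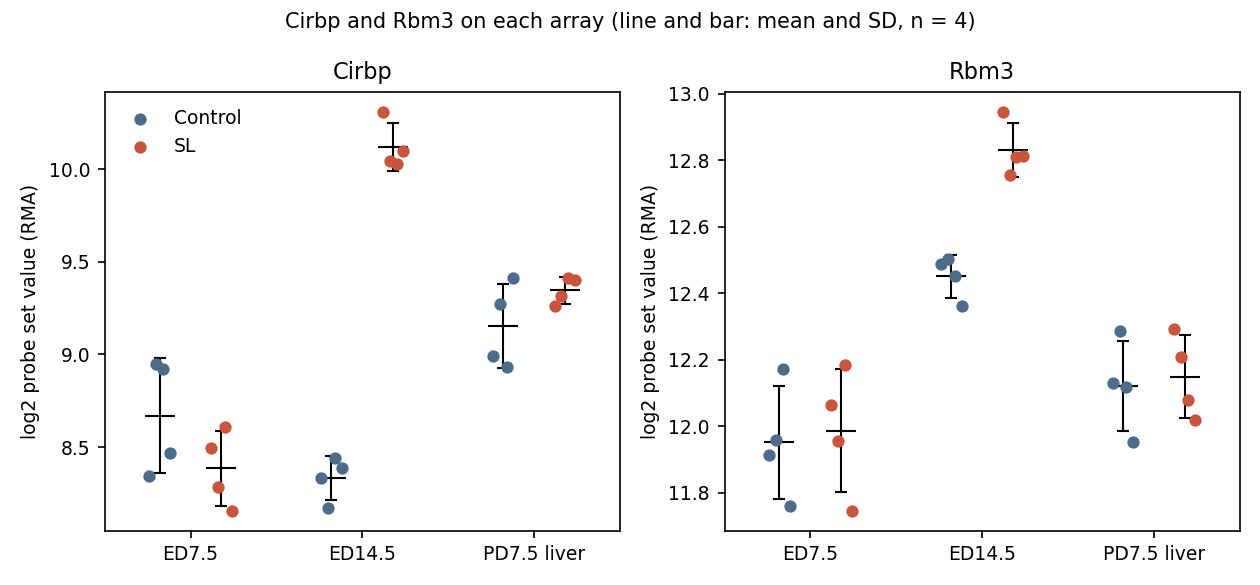
Log2 probe set values (y axis) of Cirbp (left) and Rbm3 (right) on each array by age (x axis), control in blue and SL in red, with the mean and SD of 4 arrays in black. At ED14.5 the SL arrays lie above all control arrays for both genes, while at ED7.5 and in the liver the arms overlap.

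Technical and tissue values at ED14.5 were set beside these differences. Array medians over all genes ran from 6.33 to 6.40 in control and from 6.31 to 6.40 in SL, and backgrounds from 5.98 to 6.51 and from 5.98 to 6.28. RMA normalizes quantiles, so the medians say little of technical balance. Spike-in controls overlapped between the arms but spread more widely in SL. Dap ran from 11.32 to 11.66 in control and from 10.44 to 11.84 in SL. It was lowest on SL replicate 1, the array highest in both genes. BioB ran from 9.39 to 9.68 and from 8.34 to 9.49. The part of these controls in the differences was not tested. The mean level of the 12 hepatocyte markers overlapped between the arms (12.50 to 12.58 in control, 12.52 to 12.60 in SL). The mean of the 10 measured erythroid markers was slightly lower in SL, at 11.74 to 11.83 against 11.85 to 11.92, with no overlap and all 10 above background in both arms. Its part in the higher Cirbp and Rbm3 values was not tested. Rbm3 is X-linked, so a score of 3 Y-linked genes was examined: it ran from 2.47 to 8.67 in control and from 2.45 to 8.65 in SL samples. The score was high on control replicates 1 and 4 (8.67 and 8.59) and on SL replicate 3 (8.65), and at most 3.12 on the others. Group means were 5.56 in control and 4.29 in SL, so the arms were not balanced in it. With the score as a covariate the differences were 1.78 for Cirbp and 0.37 for Rbm3. Leaving out any array gave 1.72 to 1.82 for Cirbp and 0.34 to 0.40 for Rbm3.

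The next question was whether the pair differed between SL and control at ED7.5, on arrays that played no part in its choice. Cirbp read 8.34, 8.95, 8.92 and 8.47 in control and 8.50, 8.29, 8.61 and 8.16 in SL samples. The arms overlapped, with 2 control arrays above every SL array. The difference of −0.28 (SE 0.169, 95% interval −0.66 to 0.09) did not pass limma's test (adjusted p = 0.956), and SL means were 8.39 ± 0.203 against 8.67 ± 0.311 (SD, n = 4 each). Leaving out 1 array gave −0.39 to −0.19, the latter without control replicate 2 (8.95). On that array positive and negative control probe sets were least separated (area under the curve 0.867). Rbm3 read 11.91, 11.96, 12.17 and 11.76 in control and 12.06, 11.96, 12.18 and 11.75 in SL samples. These ranges nearly coincided, and the difference was 0.04 (SE 0.130, 95% interval −0.26 to 0.33, limma adjusted p = 0.998). Limma called 0.00513% of genes in this comparison.

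In the liver at PD7.5 the pair again did not pass between the arms. Cirbp read 8.99, 9.27, 8.93 and 9.41 in control and 9.26, 9.31, 9.41 and 9.40 in SL livers. Every SL liver lay above 2 of the 4 control livers, and the arms overlapped. The difference was 0.20 (SE 0.142, 95% interval −0.12 to 0.51, limma adjusted p = 0.763), from 9.15 ± 0.227 to 9.35 ± 0.0724 (SD, n = 4 each). Rbm3 read 12.13, 12.29, 12.12 and 11.95 in control and 12.29, 12.21, 12.08 and 12.02 in SL livers, a difference of 0.03 (SE 0.128, 95% interval −0.26 to 0.31, limma adjusted p = 0.974). Limma called 0 of 19505 genes in the liver (0%), while 1543 had an unadjusted p below 0.05. On these arrays the positive control probe sets stood out from the negative ones slightly less in SL, with a separation (area under the curve) of 0.897 to 0.904 against 0.906 to 0.920 in control, and its part in the liver values was not tested.

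The SL differences at ED7.5 and in the liver were compared with each other in a fit of all 24 arrays. For Cirbp the liver difference exceeded the ED7.5 difference by 0.48 (SE 0.199, 95% interval 0.07 to 0.89), which did not pass over all genes (limma adjusted p = 0.485, unadjusted p = 0.0248). For Rbm3 it differed by −0.01 (SE 0.154, 95% interval −0.33 to 0.31, limma adjusted p = 0.993). In this comparison limma called 0.00513% of genes. Set against all genes in the plot of differences by level, both genes lie within the cloud at ED7.5 and in the liver.

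**Figure D2:**
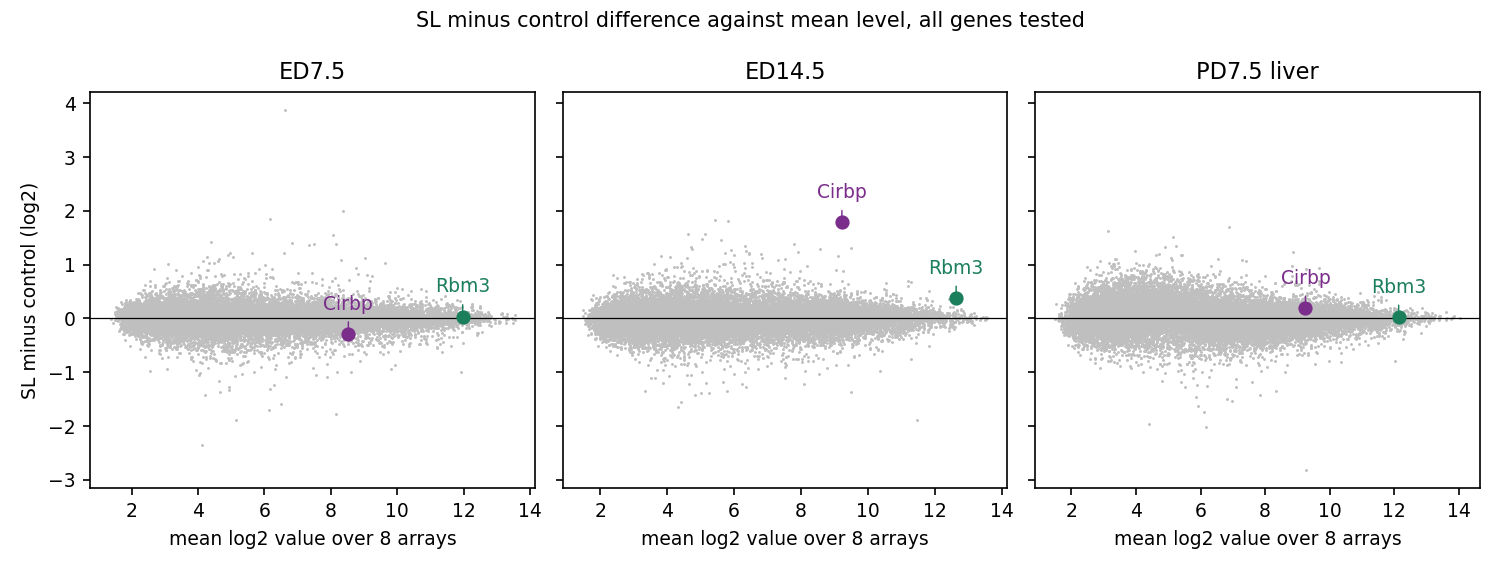
SL minus control difference in log2 (y axis) against the mean log2 value over the 8 arrays of an age (x axis) for 19505 genes (grey), with Cirbp in purple and Rbm3 in green. At ED14.5 Cirbp stands at 1.79 and Rbm3 at 0.38, against −0.28 and 0.04 at ED7.5 and 0.20 and 0.03 in the liver.

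Levels across the ages differed between the genes of the pair. For Cirbp the group means rose in the order ED14.5 control (8.33), ED7.5 SL (8.39), ED7.5 control (8.67), liver control (9.15), liver SL (9.35) and ED14.5 SL (10.12). Neighbours in this order overlapped in their arrays at each step except the last, where ED14.5 SL stood 0.77 above the SL liver. For Rbm3 the order was ED7.5 control (11.95), ED7.5 SL (11.99), liver control (12.12), liver SL (12.15), ED14.5 control (12.45) and ED14.5 SL (12.83). The first 4 of these overlapped step by step, while both ED14.5 groups stood clear of the group beneath them. ED14.5 control was thus the group with the lowest mean of Cirbp, while for Rbm3 only ED14.5 SL was higher.

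Cirbp rose from ED7.5 to the liver in both arms. In the SL arrays it rose by 0.96 (SE 0.128, limma adjusted p = 0.000127), a 1.95-fold step with no overlap. In the control arrays it rose by 0.48 (SE 0.181, limma adjusted p = 0.0474), and the highest ED7.5 array (8.95) lay above the lowest liver array (8.93). This call rested on single arrays: its limma adjusted p was 0.134 and 0.118 without ED7.5 control replicates 1 and 4, and 0.0529, 0.101 and 0.120 without liver control replicates 1, 2 and 4. It was 0.0613 with the replicate number as a block. Rbm3 differed by 0.17 (SE 0.135) in control and by 0.16 (SE 0.130) in SL arrays, and passed in neither (limma adjusted p = 0.327 and 0.335). Limma called 49.9% of all genes in the control arrays and 51.4% in the SL arrays, with 20.2% and 21.2% higher in the liver, so such a call is common in this comparison. The liver arrays lay wholly above the ED7.5 arrays for 19% of genes in control and 19.9% in SL. ED7.5 and liver samples are different tissues, and age and tissue cannot be told apart.

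Whether the pair moved together from sample to sample was examined after subtracting each group's mean. Over the 24 arrays, those of ED14.5 included, the deviations of Cirbp and Rbm3 had a Pearson r of 0.39 (permutation p = 0.155, two-sided, permuted within groups) and a Spearman rho of 0.41 (permutation p = 0.116), with the same sign on 15 of 24 arrays. On the 16 arrays outside ED14.5 r was 0.41 (permutation p = 0.197) and rho 0.47 (permutation p = 0.127). This was the only relation tested, so its adjusted p is the same. The values within single ages differed and were not tested: r was 0.78 over the 8 arrays of ED7.5, 0.31 at ED14.5 and −0.39 in the liver. The rho values were 0.79, 0.19 and −0.26. Without the 2 arrays farthest in Cirbp, which were ED7.5 control replicates 1 and 2, r was 0.43 (permutation p = 0.208). Without liver control replicate 4, on which Cirbp was high and Rbm3 low, r was 0.59 (permutation p = 0.0235). That run had the lowest p of the 24 that left out 1 array and is named for its outcome. The next lowest permutation p was 0.115, without liver SL replicate 1, and the highest was 0.367. Nothing is therefore read from that run. With each array centred on its median, r was 0.52 (permutation p = 0.0680) and rho 0.52 (permutation p = 0.04998). The p of rho thus lay just below 0.05 in that setting, and the p of r did not.

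**Figure D3:**
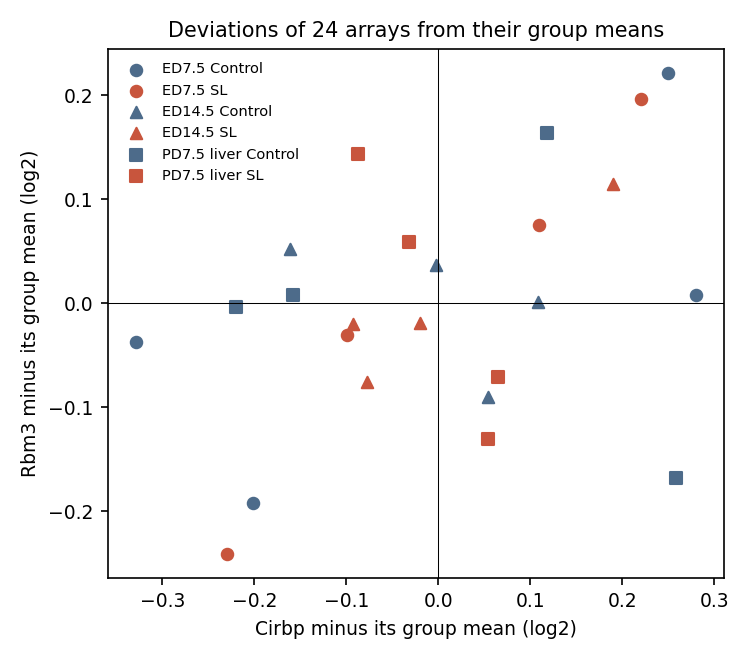
Deviation of Rbm3 from its group mean (y axis, log2) against that of Cirbp (x axis, log2) on 24 arrays, with circles for ED7.5, triangles for ED14.5 and squares for liver, control in blue and SL in red. Within an age r was 0.78 for the circles and −0.39 for the squares, and neither was tested.

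Genes with the most similar pattern were named by Pearson r over the 24 arrays, as a description among 12015 genes above background on all arrays of at least 1 group. For Cirbp these were Xrn2, a nuclear exonuclease of transcription termination (r = 0.79), Zfp867 (0.77), Tlk2 (0.77), Tbcd (0.76) and Tnfrsf13b (0.76). For Rbm3 they were Tmem40 (0.92), Cdkl1 (0.92), Ube2e3 (0.92), Smim5 (0.92) and Top2a, the topoisomerase of dividing cells (0.91), all with their highest group means in the ED14.5 groups. Rbm3 ranked 72 among the genes most like Cirbp (r = 0.61), and Cirbp ranked 2311 among those most like Rbm3. After the group means were subtracted, the highest r with Cirbp belonged to Ngfr (0.74), Zfp97 (0.71), Mdm2 (0.69), Secisbp2l (0.68) and Masp2 (0.68), and the lowest to Ehd1 (−0.77), B3gnt7 (−0.74) and Rplp1 (−0.73). For Rbm3 the highest were Kcnj5 (0.78), Ciao1 (0.75), Mier1 (0.75), Eid1 (0.74) and Bub3 (0.73). The lowest was Fkbp5, a cochaperone induced by glucocorticoids (−0.88), followed by Myo5b (−0.75) and Pitpnc1 (−0.74). Some of these r hold values below background. At ED7.5 the means in control and SL were 4.82 and 4.72 for Kcnj5 and 4.50 and 3.98 for Myo5b. The mean backgrounds there were 5.65 and 5.60. These arrays share their groups and normalization, and the extremes are those of many genes. The r over 24 arrays holds the ED14.5 step on which the pair was selected, and a gene could enter through the ED14.5 groups alone, as in Cdkl1, with means of 4.53 in ED7.5 control and 7.33 in ED14.5 SL.

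Genes of the same pathway were taken as lists of regulators, targets, clock genes, heat shock genes and relatives, with 142 different genes measured in 9 lists, neighbours included. At ED7.5 limma called 0 of them and 10 had an unadjusted p below 0.05. In the liver it called 0, with 7 below that level, and at ED14.5 it called 0, with 18, from which nothing is read. Over all genes the shares below an unadjusted p of 0.05 were 5.49%, 7.91% and 11.4%. Members named below are given by their values, with no test at ED14.5.

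Regulators of the pair were close to 0 on balance at ED14.5, with a median SL minus control difference of −0.02 over 16 genes, against 0.00 over all genes, and 8 on each side. Sp1, the factor of the cold response element shown above, differed by −0.19 (SE 0.112). Hnrnph1, which controls cold-dependent splicing of RBM3 in human cells, differed by −0.14 (SE 0.0891) with no overlap of the arms. Srsf5, a splicing factor of the SR family, was 0.26 higher in SL (SE 0.114). Clk1 and Clk4, kinases of SR proteins whose activity depends on temperature, both differed by 0.07, and Prmt1, an arginine methyltransferase that acts on CIRBP in human cells, by 0.15. Trpv4, a warmth-sensitive cation channel, was at or below background on all 8 arrays. At ED7.5 the median was −0.03, with Clk4 at −0.38 and Srsf5 at −0.37. Both rested on ED7.5 control replicate 2, without which they were −0.10 and −0.12, and on that array positive and negative control probe sets were least separated (area under the curve 0.867). In the liver the median was 0.04, with Srpk2 at 0.32 and Srsf5 at 0.30 (limma adjusted p = 0.628 and 0.623).

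Over 7 reported targets the median difference was 0.02 at ED14.5, 0.02 at ED7.5 and −0.01 in the liver. Clock, whose transcript mouse Cirbp binds, differed by −0.09 at ED14.5, by −0.05 at ED7.5 and by 0.21 (SE 0.143) in the liver. Transcripts bound by human CIRBP were Rpa2, a subunit of a single-strand DNA-binding complex, at 0.25 (SE 0.103), and Txn1, thioredoxin, at 0.13 (SE 0.0898), both at ED14.5. Rtn3, a reticulon whose translation mouse Rbm3 raises in neurons, differed by −0.15 (SE 0.0961) at ED14.5. Ccne1, cyclin E1, was the member with the lowest liver value, at −0.41 (SE 0.236, limma adjusted p = 0.707), and at −0.23 without liver control replicate 2.

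Clock genes had a median difference of −0.03 at ED14.5 over 18 measured members, and ran from −0.49 for Per2 to 0.88 for Per1. Per1, a repressor of the clock that also responds to acute signals, read 7.81, 7.63, 7.29 and 7.43 in control and 8.11, 8.42, 8.66 and 8.47 in SL samples, a difference of 0.88 (SE 0.152) with no overlap. Nfil3, a repressor of clock output genes, was 0.55 higher (SE 0.146), with 4 of 4 SL and 0 of 4 control arrays above background. Per2 was 0.49 lower (SE 0.115, no overlap), while Dbp, an output factor, differed by −0.26 and Nr1d1 lay at or below background on all 8 arrays. Wholly higher in SL were 2 of 18, Per1 and Nfil3, against 3.71% of all genes. Wholly lower was 1, Per2, against 4.27% of all genes. This contrast led to the choice of the pair, so nothing is read from these counts or from the single values. In the liver Nr1d1 was 0.31 higher and Per2 differed by −0.36 (limma adjusted p = 0.628 and 0.699), and at ED7.5 Per2 differed by 0.18 and Npas2 by −0.31 (limma adjusted p = 0.960 and 0.840). The labels used here give no hour of collection.

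Heat shock genes, the chaperones induced by heat, were listed for the known opposite response to temperature. At ED14.5, of 19 measured members of 23 listed, 16 lay below 0 and 3 above it, with a median SL minus control difference of −0.14 against 0.00 over all genes. The arms did not overlap in 7, all lower in SL, where 4.27% of all genes did so. Hsph1, the large HSP110 chaperone, read 11.08, 10.97, 10.77 and 10.64 in control and 9.52, 9.94, 10.10 and 10.002 in SL samples, a difference of −0.98 (SE 0.151). Chordc1, a cochaperone of HSP90, read 10.10, 9.92, 9.79 and 9.57 against 8.96, 8.92, 9.01 and 9.04, a difference of −0.86 (SE 0.121). For both genes the arms were apart on every array. Hspa1a and Dnajb1, which are strongly induced by heat, differed by only −0.10 (SE 0.178) and −0.18 (SE 0.114), with overlap. These values come from the contrast that led to the pair, so nothing is read from the counts.

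The median of the same list lay above 0 at ED7.5, and below 0 in the liver as at ED14.5. At ED7.5 it was 0.12, against 0.00 over all genes, with 14 of 19 above 0. Wholly higher in SL were 3 and wholly lower 0. Cryab, a small heat shock protein, was 0.71 higher (SE 0.211, limma adjusted p = 0.760), with Hspa1b at 0.39 and Hsph1 at 0.25 (limma adjusted p = 0.913 and 0.902). In the liver the list median was −0.23, against 0.00 over all genes, with 16 of 19 below 0. Wholly lower in SL were 2 and wholly higher 0. Bag3, an HSP70 cochaperone, differed by −0.55 and Hsph1 by −0.41 (limma adjusted p = 0.654 and 0.625). No member passed at either age, and the direction of the list as a whole was not tested. The plot of related lists shows all members.

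**Figure D4:**
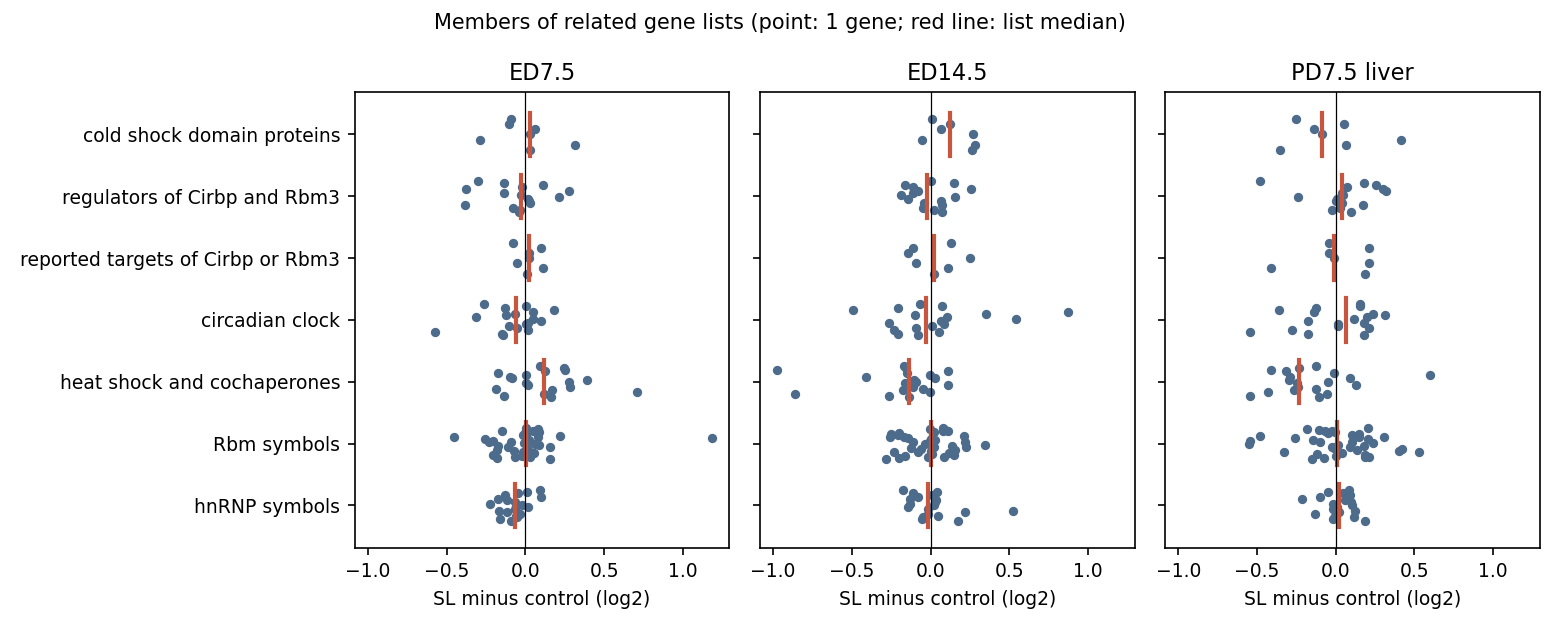
SL minus control difference in log2 (x axis) of each member of 7 related gene lists (y axis), 1 panel per age, with a red line at the list median. At ED14.5 Hsph1 (−0.98) and Chordc1 (−0.86) lie at the left end of the heat shock list and Per1 (0.88) at the right end of the clock list.

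Relatives of the pair by structure were taken next. Over 38 other measured genes with an Rbm symbol, the ED14.5 median was 0.00, with 20 above and 18 below 0, and the arms did not overlap in 1, higher in SL, as in 3.71% of all genes. The most different detected members were Rbm34 at 0.35 (SE 0.0862) and Rbm10 at −0.28 (SE 0.113), and Rbmx, the relative on the X chromosome with a similar RNA recognition motif, differed by 0.11 (SE 0.103). Of 19 hnRNP genes, which bind nascent transcripts, the median was −0.02. Among them Hnrnpdl, a relative of Hnrnpd, read 10.55, 10.07, 10.29 and 10.25 in control and 10.82, 10.91, 10.81 and 10.71 in SL samples, a difference of 0.52 (SE 0.116). Its arms did not overlap, and Hnrnpd differed by 0.22 (SE 0.0831), also with no overlap. These were the 2 of 19 that lay wholly higher in SL, against 3.71% of all genes. Wholly lower in SL was 1, Hnrnph1, as were 4.27% of all genes, and nothing is read from these counts. The medians at ED7.5 were 0.00 for the Rbm and −0.06 for the hnRNP genes, and in the liver 0.01 and 0.02. Single Rbm genes spread more widely, from −0.45 for Rbm47 to 1.19 for Rbm46 at ED7.5. In the liver they ran from −0.55 for Rbm38 to 0.53 for Rbm20, each 0.20 from 0 without 1 SL array. The hnRNP genes ran from −0.23 to 0.10 at ED7.5 and from −0.22 to 0.18 in the liver. Limma called 0 of either list at both ages.

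Proteins with a cold shock domain, an unrelated fold named for bacterial cold shock proteins, had an ED14.5 median of 0.12 over 7 measured members of 8 listed, with 6 above 0. The arms did not overlap in 2, Lin28b and Carhsp1, both higher in SL, against 3.71% of all genes. Nothing is read from this count, since the contrast led to the choice of the pair. Lin28b, which blocks the maturation of let-7 microRNAs, was 0.27 higher (SE 0.108), and Carhsp1, a calcium-regulated member, 0.26 higher (SE 0.0917). Ybx1, the abundant Y-box protein, differed by 0.06 (SE 0.0840). Csdc2 was 0.28 higher with 2 of 4 SL and 0 of 4 control arrays above background. At ED7.5 and in the liver the medians were 0.03 and −0.09, with Csdc2 at 0.32 (limma adjusted p = 0.783) and Carhsp1 at −0.35 (limma adjusted p = 0.625).

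Neighbouring genes were examined to see whether the higher ED14.5 values extended beyond the pair on its chromosomes. The 5 measured genes on each side of Cirbp had a median difference of −0.14 at ED14.5, against 0.00 over all genes, and 9 of 10 lay below 0. Fam174c, which begins 0.2 kb beyond the end of Cirbp, differed by −0.18 (SE 0.136), with 5 of the 8 arrays above background. Midn, 7.6 kb on the other side and coding for midnolin, a partner of the proteasome, read 9.80, 9.86, 9.78 and 9.87 in control and 9.05, 9.43, 9.60 and 9.58 in SL samples. It was thus 0.41 lower (SE 0.130) with no overlap, opposite to Cirbp, and 4.27% of all genes lay wholly lower in SL. This contrast led to the choice of the pair, so nothing is read from these counts. Without SL replicate 1, the array with the highest Cirbp, Fam174c differed by −0.06, Pwwp3a by −0.09 and Efna2 by −0.21. The other neighbours ran from −0.38 for Efna2, at or below background on all 8 arrays, to 0.03 for Sbno2, with Stk11 at −0.09, Cbarp at −0.20, Atp5d at −0.02, Pwwp3a at −0.20, Ndufs7 at −0.01 and Gamt at −0.03.

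On the X chromosome the 10 neighbours of Rbm3 had a median difference of −0.06 at ED14.5, with 4 above and 6 below 0 and overlap in all. The nearest, Wdr13 at 6.1 kb and Tbc1d25 at 8.6 kb, differed by 0.10 (SE 0.119) and −0.35 (SE 0.152). Gata1, the erythroid transcription factor, differed by −0.20 (SE 0.105). Glod5 was 0.65 higher with all 8 arrays at or below background, and Hdac6 (0.14), Was (0.14), Ebp (−0.21), Porcn (−0.05), Ftsj1 (−0.13) and Slc38a5 (−0.08) lay between. At ED7.5 and in the liver 0 of the 20 neighbours of either gene passed limma's test, with medians of 0.08 and −0.11 around Cirbp and of −0.08 and −0.21 around Rbm3. An unadjusted p below 0.05 was found for 1 of the 20, Slc38a5, at ED7.5 and for 0 in the liver, against 5.49% and 7.91% of all genes.

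**Figure D5:**
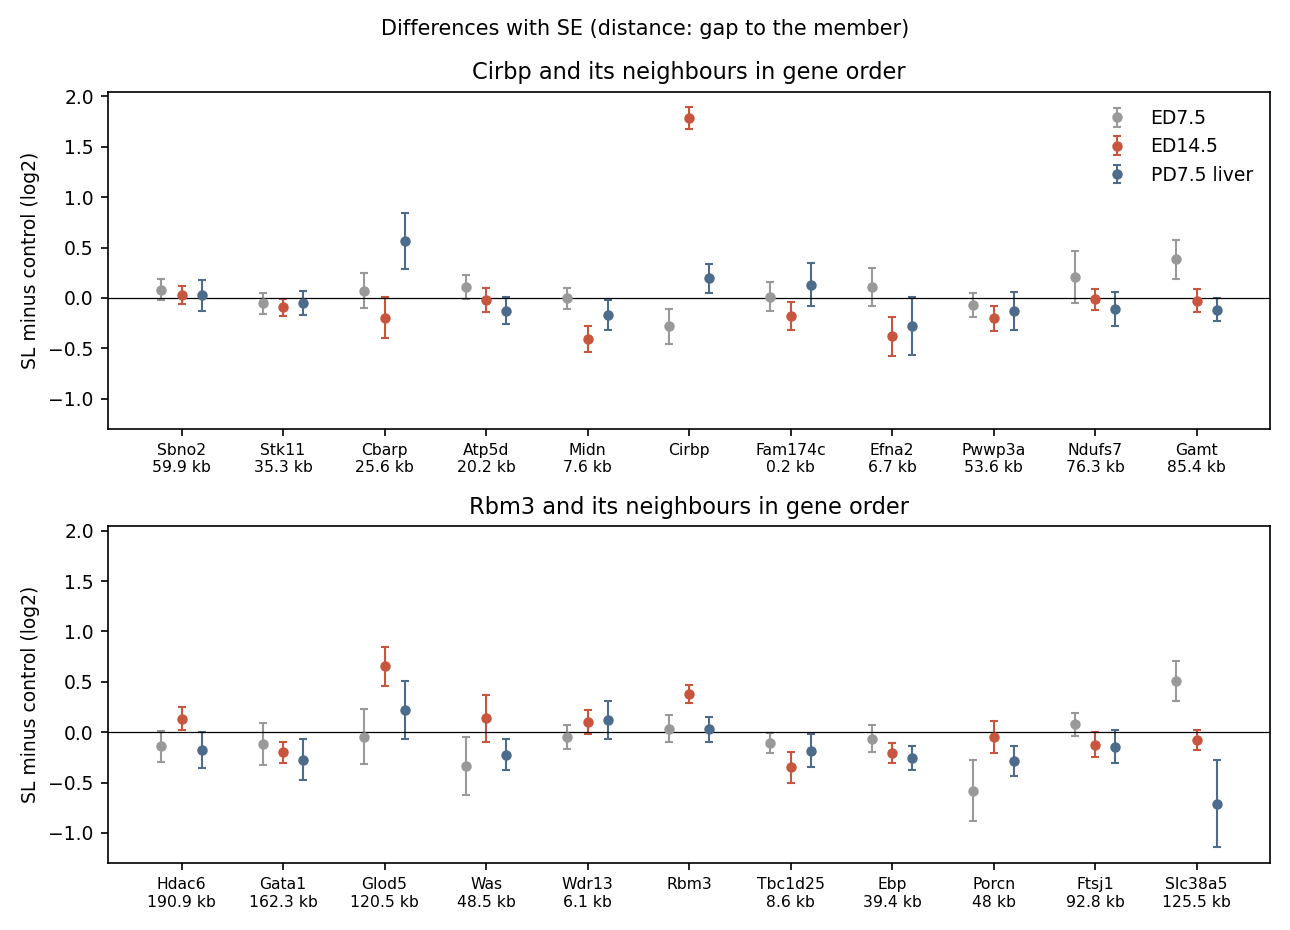
SL minus control difference in log2 with its SE (y axis) for Cirbp (top) and Rbm3 (bottom) and the 5 measured genes on each side, in gene order with the gap in kb (x axis), in grey for ED7.5, red for ED14.5 and blue for liver. At ED14.5 Cirbp stands at 1.79 between Midn at −0.41 and Fam174c at −0.18.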

How the data were processed

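RNA of 24 samples was measured on 1 array each. The deposited log2 values came from RMA in the oligo package, per the submitters' processing notes. RMA corrects background, normalizes quantiles and summarizes probe sets. No version is named, nor whether the arrays went through RMA jointly, and the scale is inferred from RMA and the values' range. Nothing was normalized again. All 19572 probe sets naming exactly 1 gene matched a RefSeq gene ID. For 55 genes with several probe sets the brightest was kept, leaving 19505.

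Differences were tested with limma 3.58.1 in R 4.3.3, two-sided, adjusted by Benjamini-Hochberg over all 19505 genes, with a threshold of 0.05. Each SL comparison used its 8 arrays, and the difference between ages used all 24. The permutation test drew 100000 resamples. Figures were drawn with matplotlib 3.10.9. The limma step was tested on simulated data. Precision is limited by the number of arrays: the median SE per gene was 0.144 at ED7.5, 0.143 at ED14.5 and 0.187 in the liver. The smallest p an exact permutation of 8 arrays allows is 0.0286.

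The members, gene lists and naming rule were chosen with earlier results of these data known. Named besides the pair were anchor genes, the neighbours, and per list the 2 detected members with the largest difference at ED14.5. At ED7.5 and in the liver such members are printed for some lists only. For the Rbm genes the ends of the list are named there, whatever their level. Listed genes with no named probe set were not analysed here. The samples of a group differed from each other in every pair. Same-numbered samples of the arms shared little deviation, with a correlation over genes of −0.17 to 0.12, so the numbers were not taken as pairs. In the liver, however, SL samples 2, 3 and 4 each correlated most with the same-numbered control sample (0.0969, 0.116 and 0.0656). What lies behind this was not tested.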

Additional observations from a re-analysis of the deposited data

How the results depend on the processing

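Leaving out any array and all other settings run kept the direction of both genes at ED14.5 and of Cirbp at ED7.5 and in the liver, and neither gene passed between the arms at ED7.5 or in the liver under any setting. Leaving out 1 array gave −0.39 to −0.19 for Cirbp at ED7.5 and 0.12 to 0.28 in the liver, where the lowest was without control replicate 3, and the Y score gave 0.09 in the liver. In the liver all 3 measured Y-linked genes were above background on every array, and the lowest score, 8.08, was that of control replicate 3. At ED7.5 all 3 were at or below background on every array. Within either age the score therefore does not tell samples with Y-linked RNA from those without. Rbm3 lay so near 0 outside ED14.5 that its sign turned: leaving out 1 array gave −0.0301 to 0.116 at ED7.5, −0.0290 to 0.0815 in the liver and −0.0888 to 0.0571 for the difference between these ages, which was −0.01 as reported, 0.0199 with array weights, 0.0175 after quantile normalization and 0.0128 after centring. The rise of Cirbp from ED7.5 to the control liver was 0.48 and no longer passed with the replicate block (limma adjusted p = 0.0613) or by exact permutation (p = 0.0571), was 1.29 with the Y score as a covariate (limma adjusted p = 0.871), and was 0.37 to 0.58 leaving out 1 array. With the Y score the SL arrays gave −0.42 for Cirbp and −1.14 for Rbm3. The score runs from 2.19 to 3.31 at ED7.5 and from 8.08 to 8.82 in the liver, so it stands in for age there. The correlation of the pair was 0.283 to 0.592 leaving out 1 array and 0.519 after centring. Genes called by limma at ED7.5 numbered 1, against 3 with an intensity trend, 12 in a fit of 24 arrays, 0 with the Y score and 0 to 2 leaving out 1 array. At ED14.5 they numbered 10, against 283 with the trend, 79 with 24 arrays, 0 with the replicate block, 99 without the dimmest 33% of genes, 5 after centring, 2 with the Y score and 1 to 5 leaving out 1 array. In the liver they numbered 0, against 5 with 24 arrays. From ED7.5 to the liver the Y score left 81 of 9738 in control and 0 of 10022 in SL. For the difference between ages they numbered 1, against 0 with array weights, centring or the Y score, 2 with the replicate block and 0 to 10 leaving out 1 array. Except where the Y score follows age, the cause was not tested. Replicate numbers are not shown to pair samples, and the blocked fit changed no other call of the pair. Leaving out single arrays for the list genes was chosen after seeing the data.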
